A study of Homo sapiens with 6 samples.

Results

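The genes described here are 10 components of the insulin-like growth factor (IGF) system: the receptors IGF1R, IGF2R and INSR, the adaptors IRS1 and IRS2, and the binding proteins IGFBP2 to IGFBP6. They were taken by name from the count table, which holds 20503 genes, and all 10 were found in it. The study sequenced poly(A)-selected RNA of 2 cultures in 3 libraries each. T47D-TR is a tamoxifen-resistant subline of T47D, grown with 1 µM 4-hydroxytamoxifen, the active form of the drug. T47D is the parent, a human breast cancer cell line that the labels call oestrogen receptor positive, grown in the same serum-containing medium without mention of the drug. Subline and drug therefore cannot be told apart in these libraries. The labels do not say how T47D-TR was selected, whether it is 1 clone, or whether the 3 libraries of each kind were grown separately. The spread behind each p-value is therefore that between libraries, and it may be technical.

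IGF1R is a tyrosine kinase receptor that binds IGF1 and IGF2, and INSR is the closely related insulin receptor. Activated receptors phosphorylate the docking proteins IRS1 and IRS2, which recruit PI3 kinase and so connect the receptors to AKT signalling. The binding proteins are secreted, hold IGFs away from the receptors or release them after cleavage, and have effects of their own. In oestrogen receptor positive breast cancer cells, IGF1R, IRS1 and IGFBP4 are known to be induced by oestrogen, and signalling through IGF1R has been linked to endocrine resistance.

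Libraries held 17199315 to 19867230 counts in T47D-TR and 18315735 to 19305594 in T47D, so that 3 counts correspond to 0.153 to 0.178 CPM, the read count scaled to library size. Setting T47D-TR replicate 3 beside replicates 1 and 2 gave a chi-square of 8.36 and 9.58 for each gene, against 2.79 between replicates 1 and 2 and at most 2.24 within T47D. The oestrogen receptor alpha gene ESR1 had no more than 4 counts in any library (2, 4 and 3 in T47D-TR, and 3, 0 and 2 in T47D). This goes against the label of an oestrogen receptor positive line in both cultures, so the names T47D-TR and T47D are used as labels only. Of 18 luminal breast epithelial markers 15 were in the table, and their summed level was 2780 to 3180 CPM in T47D-TR and 2270 to 2360 CPM in T47D, most of it from the keratin genes KRT8 and KRT18. Of the 13 tested luminal markers 8 rose and 4 fell, those that fell being EPCAM (log2 fold change -1.39), GATA3 (-0.97), ERBB3 (-0.72) and CLDN4 (-0.27). GATA3 had 11, 14 and 10 counts in T47D-TR and 21, 23 and 26 in T47D, and was not called with DESeq2 (adjusted p = 0.0607). For CLDN4 the groups overlapped. Of 15 fibroblast and mesenchymal markers 12 were in the table, with sums of 1570 to 1620 CPM in T47D-TR and 894 to 910 CPM in T47D, most of it from VIM, which encodes vimentin. Of the 5 tested ones VIM and FBLN1 rose, COL1A1 was not called at 310 to 342 counts in T47D-TR and 315 to 366 in T47D, and PDGFRB and LUM fell, LUM having 6, 3 and 5 counts in T47D-TR and 269, 232 and 286 in T47D. Chosen after their values were seen, COL1A2, COL3A1, DCN and PDGFRA of the same list together had 7, 1 and 80 counts in T47D-TR replicates 1, 2 and 3, and 0, 0 and 1 counts in the T47D libraries. Immune and endothelial markers, 6 of 10 in the table, summed to 80.3 to 103 CPM in T47D-TR and 23.2 to 27.0 CPM in T47D, nearly all of it from PECAM1 and CD68, which both rose. PECAM1, an endothelial gene, had 453, 610 and 459 counts in T47D-TR and 13, 13 and 12 in T47D, and CD68, a macrophage marker of lysosomes, had 1086, 1236 and 1257 counts in T47D-TR and 466, 481 and 402 in T47D. PTPRC, the pan-leukocyte gene, had at most 2 counts in any library, and VWF, another endothelial gene, at most 4. The part of these markers in the results was not tested, and in bulk RNA fewer cells of a type cannot be told apart from less RNA per cell.

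In T47D-TR, 6 of the 9 tested genes of the IGF system rose. All 9 fold changes were above 1, with edgeR and with DESeq2, so none fell at any p. Across all 15961 tested genes, 63.0% were called in either direction and 32.5% were called higher, so single calls are frequent in this comparison. The 4 testable binding protein genes rose between 2.65- and 4.30-fold, and IRS1 rose 2.51-fold, which differs from the 2.65-fold of IGFBP4 by less than the SE of IRS1. A rise of at least 2-fold was called for these 5 genes and for 10.1% of all tested genes. IGF1R rose 1.41-fold, while IGF2R, INSR and IRS2 were not called. IGFBP5 had too few counts to be tested. A call is an adjusted p under 0.05 from edgeR's quasi-likelihood test with Benjamini-Hochberg adjustment over all tested genes, and fold changes are T47D-TR over T47D. The median log2 fold change was 1.33 over the 9 tested genes and 0.00 over all tested genes. The 3 libraries of T47D-TR lay above all 3 of T47D for the same 6 genes, as they did for 34.6% of all tested genes, and 68.3% of tested genes had groups that did not overlap in either direction. In the authors' deposited table the same 6 genes have a false discovery rate under 0.05, the highest being 6.67e-10 for IGFBP3, and the lowest of the other 4 is 0.186 for IRS2.

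**Figure D1:**
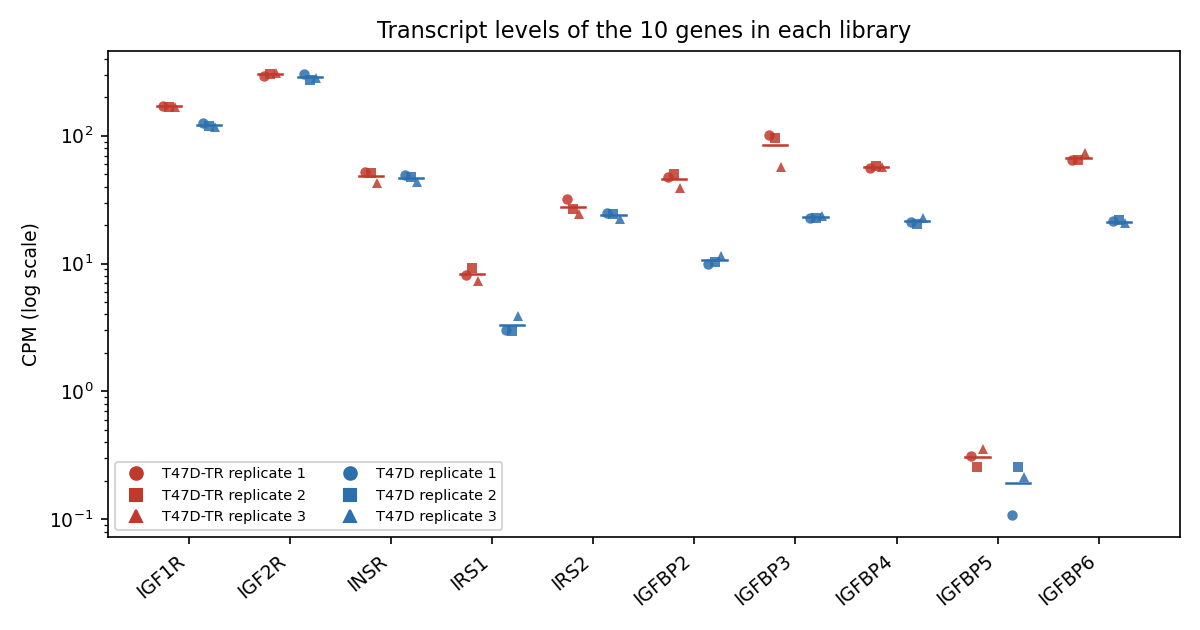
CPM of each gene on a logarithmic axis, in the 3 T47D-TR libraries (red, left of each pair) and the 3 T47D libraries (blue, right). Symbols mark the replicate number and bars the group mean; the 3 T47D-TR libraries lie above all T47D libraries for IGF1R, IRS1, IGFBP2, IGFBP3, IGFBP4 and IGFBP6, and T47D-TR replicate 3 lies low for IGFBP3.

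Among the receptors, IGF1R (chromosome 15, 98648539 to 98964530, GRCh38) had 172, 167 and 169 CPM in the T47D-TR libraries, against 126, 119 and 116 CPM in the T47D libraries. The groups did not overlap, and T47D-TR replicate 3 was as high as the other T47D-TR libraries. The log2 fold change was 0.49 ± 0.04 (SE, n = 3 each, edgeR adjusted p = 1.56e-06), and 21.9% of tested genes had a larger one. IRAIN, a noncoding gene whose position (98645863 to 98650787) overlaps the start of IGF1R, had 56 to 79 counts in T47D-TR and 49 to 75 in T47D, against at least 2166 counts of IGF1R in any library.

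IGF2R (chromosome 6, 159969082 to 160111504), the mannose 6-phosphate receptor that takes up and removes IGF2 and has no kinase, stood at 295, 306 and 310 CPM in T47D-TR and 302, 274 and 282 CPM in T47D. The groups overlapped. Its log2 fold change of 0.09 ± 0.05 was not called (edgeR adjusted p = 0.117), but it was called at 0.12 without T47D replicate 1 (edgeR adjusted p = 0.0495) and at 0.17 with voom and quantile normalization (limma adjusted p = 0.00433). INSR (chromosome 19, 7112265 to 7294414) had 51.7, 51.3 and 42.9 CPM in T47D-TR, against 49.7, 47.5 and 43.1 CPM in T47D. The lowest library of each group was its replicate 3, and the groups overlapped. The log2 fold change was 0.06 ± 0.11 (edgeR adjusted p = 0.542). Without T47D-TR replicate 3 it was 0.14 and called (edgeR adjusted p = 0.0403), and without T47D replicate 3 it was -0.00058 and not called (edgeR adjusted p = 0.996).

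Within each library, the ratio of INSR counts to IGF1R counts does not depend on scaling between libraries. It was 0.300, 0.307 and 0.253 in T47D-TR, against 0.394, 0.399 and 0.371 in T47D. All 3 T47D-TR ratios were below all 3 T47D ratios. On the log2 scale the ratio averaged -1.81 ± 0.15 in T47D-TR and -1.37 ± 0.06 in T47D (SD, n = 3 each), a difference of -0.44 ± 0.09 (SE). The exact 2-sided permutation test gave p = 0.1, the smallest that 3 against 3 libraries allow. The insulin receptor transcript thus made up a smaller part of the receptor kinase pair in T47D-TR than in T47D, and of the pair IGF1R alone was called.

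The adaptors differed from each other in level and in change. IRS1 (chromosome 2, 226731312 to 226799820) had 158, 182 and 123 counts in T47D-TR, against 56, 58 and 73 counts in T47D, or 8.25 ± 1.00 and 3.30 ± 0.532 CPM (SD, n = 3 each). Every T47D-TR library was above every T47D library. Its log2 fold change was 1.33 ± 0.16 (SE, edgeR adjusted p = 9.6e-06), exceeded by 6.85% of tested genes. IRS2 (chromosome 13, 109752695 to 109786583) stood at 31.8, 26.6 and 24.5 CPM in T47D-TR, against 24.8, 24.3 and 22.5 CPM in T47D. Only T47D-TR replicates 1 and 2 were above all T47D libraries. Its log2 fold change of 0.21 ± 0.12 was not called (edgeR adjusted p = 0.0651). Without T47D-TR replicate 3 it was 0.29 and called (edgeR adjusted p = 0.00171), and without T47D-TR replicate 1 it was 0.10 (edgeR adjusted p = 0.341). An antisense gene of the GENCODE annotation shares 115 bases, 1.4%, of the IRS2 exons, and as no source states how strand was treated in counting, its reads may be among those of IRS2.

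IRS2 was the more abundant adaptor in both cultures, by less in T47D-TR. The ratio of IRS2 counts to IRS1 counts was 3.88, 2.86 and 3.36 in the T47D-TR libraries, against 8.23, 8.19 and 5.75 in the T47D libraries. The ranges did not overlap. The log2 ratio averaged 1.74 ± 0.22 in T47D-TR and 2.87 ± 0.30 in T47D (SD, n = 3 each), a difference of -1.13 ± 0.21 (SE, exact 2-sided permutation p = 0.1, the smallest possible). Exon lengths of 8138 bases for IRS2 and 9705 for IRS1 are alike in size, and per kilobase IRS2 stood at 3.39 ± 0.463 and IRS1 at 0.850 ± 0.103 CPM in T47D-TR, against 2.93 ± 0.149 and 0.340 ± 0.0549 CPM in T47D (SD, n = 3 each).

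**Figure D2:**
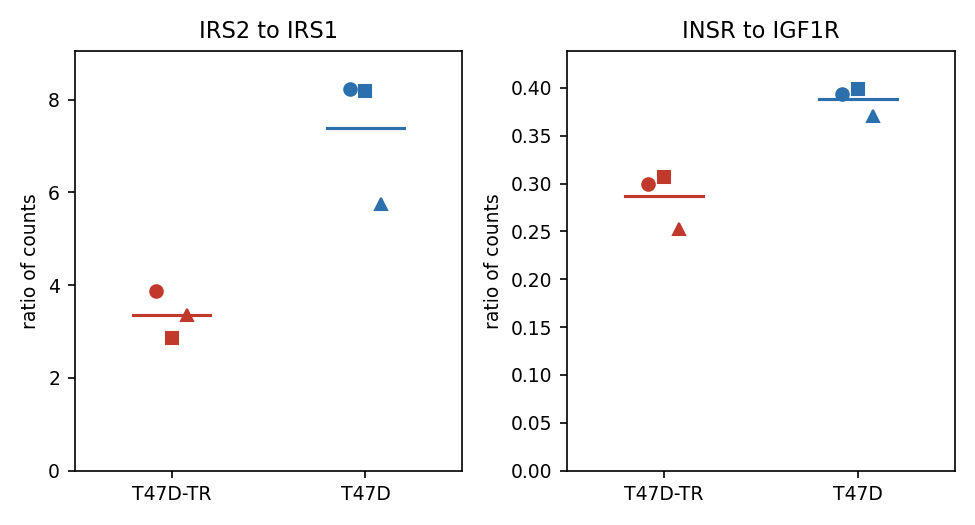
Ratio of IRS2 to IRS1 counts (left) and of INSR to IGF1R counts (right) in each library, on axes that start at 0. Circles, squares and triangles are replicates 1, 2 and 3 and bars are group means; for both ratios the 3 T47D-TR libraries (red) lie below the 3 T47D libraries (blue), at 2.86 to 3.88 against 5.75 to 8.23 for IRS2 to IRS1.

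Of the 5 binding protein genes the 4 that could be tested all rose. IGFBP2 (chromosome 2, 216632828 to 216664436), a binding protein with a preference for IGF2, had 918, 976 and 660 counts in T47D-TR, against 186, 201 and 214 in T47D. The lowest T47D-TR library was thus above 3 times the highest T47D library in counts. Its levels were 45.5 ± 5.65 CPM in T47D-TR and 10.6 ± 0.774 CPM in T47D (SD, n = 3 each), with a log2 fold change of 2.10 ± 0.12 (SE, edgeR adjusted p = 3.84e-09), and 2.96% of tested genes had a larger one.

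IGFBP3 (chromosome 7, 45912245 to 45921272), the main IGF carrier of blood, which is also induced by TGF-beta and p53, had 1975, 1877 and 958 counts in T47D-TR, against 419, 447 and 442 in T47D. In CPM these were 102, 95.7 and 56.7 in T47D-TR and 22.6, 22.9 and 23.7 in T47D. T47D-TR replicate 3 was far below the other T47D-TR libraries and still above all T47D libraries. Its level was 0.573 times the mean of the other T47D-TR libraries, a ratio below which 2.27% of tested genes lay, against a median of 1.00 over tested genes. The log2 fold change was 1.89 ± 0.27 (SE, edgeR adjusted p = 1.08e-06), and 2.11 without T47D-TR replicate 3 (edgeR adjusted p = 2.62e-25). Both groups share the estimate of the spread in this fit. Over tested genes, edgeR put the coefficient of variation between libraries at 0.0795 within T47D-TR and 0.0271 within T47D. These p-values rest on different estimates of the spread and are not to be compared as strengths of evidence.

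IGFBP4 (chromosome 17, 40443450 to 40457725), mainly an inhibitor of IGF action, and IGFBP6 (chromosome 12, 53097667 to 53102340), which binds IGF2 over IGF1, varied little between libraries. IGFBP4 had 56.0, 58.1 and 56.6 CPM in T47D-TR, against 21.3, 20.5 and 22.6 CPM in T47D. IGFBP6 had 64.6, 64.9 and 73.0 CPM in T47D-TR, against 21.4, 21.8 and 20.6 CPM in T47D. For both genes T47D-TR replicate 3 was within or above the range of its group, unlike for IGFBP2 and IGFBP3. The log2 fold changes were 1.41 ± 0.04 for IGFBP4 (SE, edgeR adjusted p = 1.77e-09) and 1.66 ± 0.06 for IGFBP6 (SE, edgeR adjusted p = 9.63e-10). The coefficient of variation within T47D-TR was 1.85% for IGFBP4 and 7.09% for IGFBP6, against 12.4% for IGFBP2 and 29.0% for IGFBP3. All 4 binding protein calls held without T47D-TR replicate 3.

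IGFBP5 (chromosome 2, 216672105 to 216695549), a matrix-bound binding protein whose 3′ end lies 7668 bases from the 3′ end of IGFBP2, was near the limit of detection. It had 6, 5 and 6 counts in T47D-TR, against 2, 5 and 4 in T47D. The groups overlapped at 5 counts in a library, and the gene did not pass the filter on low counts. From the sums of 17 counts in T47D-TR and 11 in T47D, its level ratio was 1.57 with a 95% exact (Clopper-Pearson) interval of 0.695 to 3.72, which covers the error of counting alone, PCR copies not being independent molecules. An antisense gene shares 298 bases, 4.8%, of its exons. A change of the size of that of IGFBP2, at 4.30-fold, lies above this interval. Changes of the size of those of IGFBP3 (3.70-fold), IGFBP6 (3.17-fold) and IGFBP4 (2.65-fold) lie within it. Whether IGFBP5 rose as these genes did can therefore not be told from its counts.

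**Figure D3:**
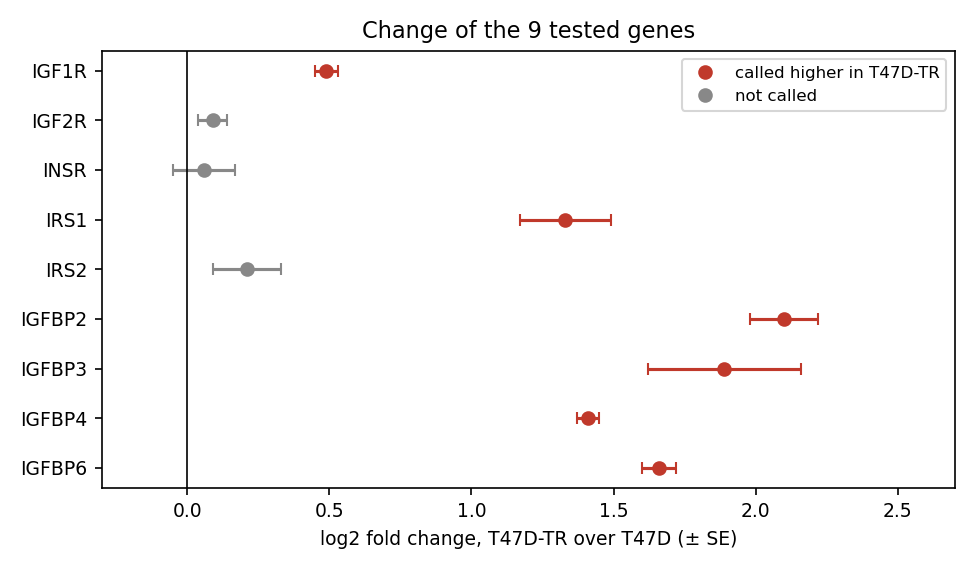
Log2 fold change of the 9 tested genes, T47D-TR over T47D, with the standard error between libraries (n = 3 each). The 6 genes in red were called higher, from 0.49 for IGF1R to 2.10 for IGFBP2, and the 3 in grey were not called.

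The start regions of the 4 binding protein genes that rose and of IRS1 are shown because these are the genes of the system that rose more than 2-fold. They were read from RefSeq (GRCh38.p14) as the 250 bases upstream of the start site, 5′ to 3′ on the strand of the gene, at chr2:216633170-216633419 (plus strand) for IGFBP2, chr7:45921273-45921522 (minus) for IGFBP3, chr17:40443200-40443449 (plus) for IGFBP4, chr12:53097417-53097666 (plus) for IGFBP6 and chr2:226799821-226800070 (minus) for IRS1. For IGFBP2, RefSeq lists 3 start sites, and the window belongs to the one nearest the start of the longest coding transcript of GENCODE v29, which lies inside the gene span given above, downstream of its first base. Capitals mark matches, on either strand, to any of 7 motifs that were searched: the TATA box (TATAAA), the SP1 box (GGGCGG), and the motifs of EGR1 (GCGNGGGCG), AP-1 (TGANTCA), FOXO (GTAAACA), the hypoxia response element (NACGTGC) and the oestrogen response element (GGTCA and TGACC with 3 bases between them).
IGFBP2: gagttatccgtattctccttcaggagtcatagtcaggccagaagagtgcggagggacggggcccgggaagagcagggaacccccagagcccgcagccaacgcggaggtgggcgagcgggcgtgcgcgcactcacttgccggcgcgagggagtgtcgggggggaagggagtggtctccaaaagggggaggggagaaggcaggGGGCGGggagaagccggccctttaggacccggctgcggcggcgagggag
IGFBP3: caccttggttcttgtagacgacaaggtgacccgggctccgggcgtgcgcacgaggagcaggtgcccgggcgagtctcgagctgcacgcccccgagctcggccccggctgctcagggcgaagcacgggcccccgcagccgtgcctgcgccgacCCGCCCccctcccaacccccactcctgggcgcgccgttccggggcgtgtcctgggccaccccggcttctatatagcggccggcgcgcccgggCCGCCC
IGFBP4: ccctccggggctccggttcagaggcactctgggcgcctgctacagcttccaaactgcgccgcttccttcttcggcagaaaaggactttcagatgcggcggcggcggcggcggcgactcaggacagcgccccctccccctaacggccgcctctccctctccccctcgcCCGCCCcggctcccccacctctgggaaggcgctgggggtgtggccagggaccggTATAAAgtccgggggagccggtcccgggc
IGFBP6: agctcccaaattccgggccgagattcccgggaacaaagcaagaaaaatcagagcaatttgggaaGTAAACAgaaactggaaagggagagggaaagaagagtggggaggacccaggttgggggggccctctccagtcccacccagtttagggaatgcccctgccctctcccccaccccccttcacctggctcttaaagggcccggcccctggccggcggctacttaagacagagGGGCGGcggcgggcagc
IRS1: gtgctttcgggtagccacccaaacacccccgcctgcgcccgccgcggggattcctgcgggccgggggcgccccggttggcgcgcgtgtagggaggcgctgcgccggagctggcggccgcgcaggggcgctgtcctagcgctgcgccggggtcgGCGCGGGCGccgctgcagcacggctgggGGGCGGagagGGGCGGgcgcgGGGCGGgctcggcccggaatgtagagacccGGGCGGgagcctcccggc
The SP1 box was present in the upstream window of 9 of the 10 genes, all but IGFBP5, and in 42.6% of all 35116 RefSeq windows of this length and 62.3% of those of tested genes. Matches to the SP1 box and EGR1 motifs can overlap, as they do upstream of IRS2. IRS1 held 4 SP1 boxes and 1 EGR1 match, the EGR1 match lying 97 to 89 bases before the start site. The EGR1 motif was found for 3 of the 10 genes, IGF2R, IRS1 and IRS2, against 8.41% of all windows and 13.0% of those of tested genes, and 1 of those 3 rose. The exact letters TATAAA lay 29 to 24 bases before the start of IGFBP4 and were found in 10.7% of all windows and 6.06% of those of tested genes. Variants of the TATA box, such as the unmarked tatata in the IGFBP3 window, were not searched for. A FOXO match was found for IGFBP6 (2.98% of all windows and 2.29% of those of tested genes) and a hypoxia element match for IGF1R (5.82% and 7.05%). AP-1 and oestrogen element letters, in 6.57% and 0.04% of all windows, were not in the windows of the 10 genes. These matches are letters only and were not tested for binding. The windows of the 5 genes were 61.2% (IGFBP6) to 80.8% (IRS1) G or C, against a median of 58.0% over all windows and 64.4% over those of tested genes, so that IGFBP6 lay between these medians.

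Summed over the 5 binding protein genes, the level was 271, 269 and 226 CPM in the T47D-TR libraries, against 75.3, 75.7 and 78.6 CPM in the T47D libraries. The sum averaged 255 ± 25.4 CPM in T47D-TR and 76.6 ± 1.79 CPM in T47D (SD, n = 3 each), 3.33-fold higher in T47D-TR (exact 2-sided permutation p = 0.1, the smallest possible). All 3 T47D-TR libraries had a higher sum than all 3 T47D libraries. Per kilobase of exon, which makes levels of different genes comparable, IGFBP6 held 33.7%, 33.8% and 42.9% of the sum in T47D-TR, against 39.2%, 39.8% and 36.6% in T47D. IGFBP2 held 21.1% ± 1.28 in T47D-TR and 16.4% ± 0.892 in T47D, and IGFBP4 held 18.9% ± 1.29 in T47D-TR and 23.7% ± 0.842 in T47D (SD, n = 3 each). The libraries of the groups did not overlap for these 2 shares, IGFBP2 having the larger and IGFBP4 the smaller share in T47D-TR. The share of IGFBP3 was 27.2% and 25.5% in T47D-TR replicates 1 and 2 and 17.0% in replicate 3, on either side of the 21.1% to 21.4% of T47D.

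**Figure D4:**
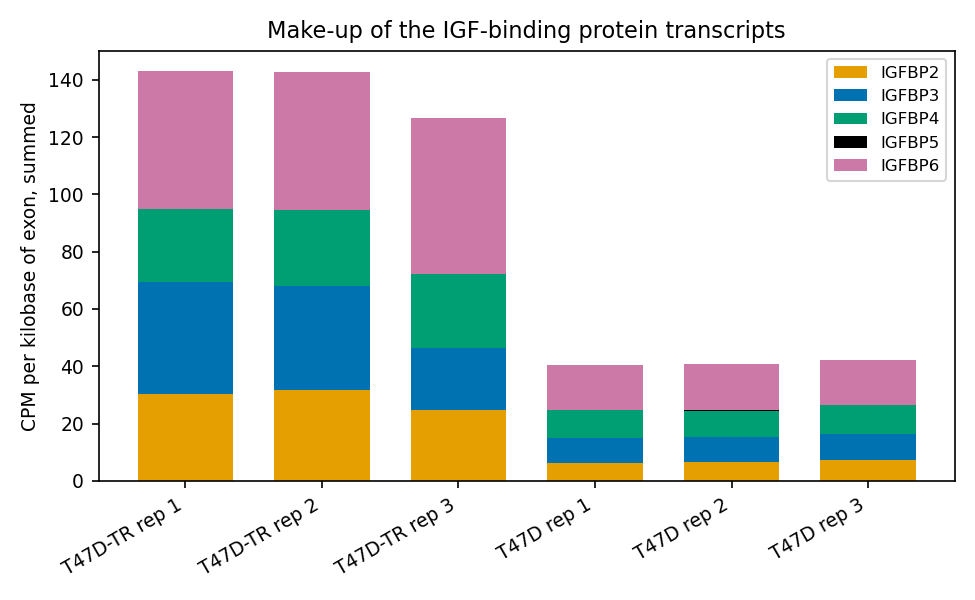
CPM per kilobase of exon of IGFBP2 to IGFBP6, stacked for each library, with the T47D-TR libraries on the left and the T47D libraries on the right. The T47D-TR columns are about 3 times as tall as the T47D columns, IGFBP5 is at most a thin line, and the IGFBP3 segment is smaller in T47D-TR replicate 3.

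The order of the 10 genes by level per kilobase differed between the cultures. In T47D-TR it ran from IGFBP6 at 50.3 ± 3.56 CPM per kilobase through IGFBP3 (32.3 ± 9.37), IGFBP2 (29.0 ± 3.60), IGFBP4 (25.9 ± 0.478), IGF2R (21.6 ± 0.527) and IGF1R (13.8 ± 0.214) to INSR (5.35 ± 0.548), IRS2, IRS1 and IGFBP5. IGFBP3 and IGFBP2, and IGFBP2 and IGFBP4, overlapped between libraries, and the other neighbours did not. In T47D the order was IGF2R (20.4 ± 1.02), IGFBP6 (15.8 ± 0.453), IGF1R (9.85 ± 0.428), IGFBP4 (9.76 ± 0.485), IGFBP3 (8.75 ± 0.221), IGFBP2 (6.75 ± 0.493), INSR (5.14 ± 0.371), IRS2, IRS1 and IGFBP5. Here only IGF1R and IGFBP4 overlapped. IGFBP3 spread so widely in T47D-TR, from 21.5 to 38.9 CPM per kilobase, that it also overlapped IGFBP4 and IGF2R (21.0 to 22.0). IGFBP2, IGFBP4 and IGFBP6 thus stood above both IGF receptors in every T47D-TR library, and IGFBP3 did so in replicates 1 and 2. IGF2R stood above all the binding protein genes in every T47D library. With the longest coding transcript as the length in place of all exons, each gene kept its rank in both cultures, and IGFBP6 stood at 57.3 CPM per kilobase in T47D-TR. Both lengths are the same for IGF1R, IGF2R, IRS1, IRS2, IGFBP4 and IGFBP5, so the ranks had little room to change.

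Genes with the most similar profile to IGFBP2, the member that rose most, were found by distance over the 6 libraries, in log2 CPM centred per gene. The nearest were PKIG, which encodes a protein kinase A inhibitor (distance 0.14), the immediate-early gene IER3 (0.18), C6orf223 (0.18), SH2B3 (0.20) and SBK3 (0.21). PKIG had 6.16 ± 0.554 CPM in T47D-TR and 1.36 ± 0.0847 CPM in T47D, and IER3 had 198 ± 29.5 CPM in T47D-TR and 46.4 ± 0.534 CPM in T47D (SD, n = 3 each). Among the members, IGFBP3 was nearest to IGFBP2 at a distance of 0.53, with 131 tested genes nearer, then IGFBP6 at 0.69 with 274 and IGFBP4 at 0.88 with 466.

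The rest of the pathway was read from 7 lists with 127 entries, of which 109 were in the table and 96 were tested. Of these 96 genes 56 rose and 19 fell, with a median log2 fold change of 0.44, where 32.5% of all tested genes rose and 30.5% fell. As the lists were chosen with earlier results of these data known, this is not an independent comparison. The ligands were scarce. IGF1 had 5 counts in T47D-TR replicate 3 and 0 counts in every other library. That library also held 80 counts of COL1A2, COL3A1, DCN and PDGFRA together, against at most 7 in any other, and a link was not tested. IGF2 had 9, 8 and 11 counts in T47D-TR and 3, 4 and 4 in T47D, and its counts are uncertain, since the annotated readthrough gene INS-IGF2 had nearly the same ones (8, 7 and 11 in T47D-TR and 3, 4 and 4 in T47D); how reads of the overlapping genes were assigned was not tested. Neither gene passed the filter on low counts. Of the 2 tested ligand genes, IGFL2, an IGF-like family gene, rose to 0.941 ± 0.208 CPM in T47D-TR, against 0.105 ± 0.0908 CPM in T47D (edgeR adjusted p = 0.000318), and INSL3 was not called (edgeR adjusted p = 0.959).

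Enzymes that cut IGF-binding proteins, and inhibitors of such enzymes, rose in T47D-TR in all 12 tested genes of 18 listed, with a median log2 fold change of 1.07. Over all tested genes 32.5% rose, and this list was chosen with earlier results of these data known. All 12 calls also held, in the same direction, under each of the alternatives run. PAPPA encodes pappalysin 1, the metalloprotease that cleaves IGFBP4 and releases its IGF. It had 351, 418 and 318 counts in T47D-TR, against 9, 6 and 8 in T47D. In CPM it stood at 19.4 ± 1.65 in T47D-TR and 0.407 ± 0.0909 in T47D (SD, n = 3 each), a log2 fold change of 5.56 ± 0.17 (SE, edgeR adjusted p = 9.59e-11). IGFBP4 and PAPPA, substrate and protease, thus rose together. PLAT, which encodes tissue plasminogen activator, rose to 39.4 ± 3.58 CPM in T47D-TR, against 5.62 ± 0.838 CPM in T47D (edgeR adjusted p = 6.47e-10). Named after their values were seen, STC2, the gene of a stanniocalcin that inhibits pappalysin, rose with a log2 fold change of 1.47 ± 0.08 (edgeR adjusted p = 1.56e-09), and its relative STC1 had 27, 31 and 6 counts in T47D-TR against 1, 1 and 0 in T47D. STC1 did not pass the filter on low counts, its level in T47D-TR replicate 3 being 0.238 times the mean of the other T47D-TR libraries. The smallest rise of the list was that of the cathepsin D gene CTSD, at 0.44. CTSD is also known as an oestrogen-induced gene.

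Among other receptors, binding proteins and proteins with an IGFBP domain, 6 of 12 tested genes of 19 listed rose and 1 fell (median log2 fold change 0.25). Shares over all tested genes were 32.5% higher and 30.5% lower. LRP1, a scavenger receptor that also binds IGFBP3, rose to 187 ± 5.78 CPM in T47D-TR, against 35.0 ± 1.70 CPM in T47D (edgeR adjusted p = 8.21e-12). IGFBP1 was low, with 22, 23 and 22 counts in T47D-TR against 2, 8 and 1 in T47D, and was called higher (log2 fold change 2.60, edgeR adjusted p = 0.000388). Without T47D replicate 2 that value was 3.79. The gene that fell was HTRA3, a serine protease gene with an IGFBP domain, at 1.64 ± 0.459 CPM in T47D-TR and 12.1 ± 0.425 CPM in T47D (edgeR adjusted p = 1.63e-08).

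Adaptors other than IRS1 and IRS2 went both ways, with 8 of 18 tested genes higher and 5 lower (median log2 fold change 0.24). So did tested genes as a whole, with 32.5% higher and 30.5% lower. SH2B3, which encodes an adaptor that restrains cytokine receptor signals, rose to 197 ± 14.4 CPM in T47D-TR, against 46.5 ± 1.68 CPM in T47D (edgeR adjusted p = 6.21e-11). SHC1, the gene of an adaptor from receptors to RAS, had a log2 fold change of 0.66 ± 0.04 (edgeR adjusted p = 1.58e-07). SH2B1, an enhancer of insulin receptor signalling, fell by 0.35 on the log2 scale (edgeR adjusted p = 0.000148), as did GNB2L1, the RACK1 scaffold gene, also by 0.35 (edgeR adjusted p = 1.81e-06).

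Of 21 tested genes listed as brakes on insulin and IGF receptors or their signalling, 10 rose and 5 fell, against 32.5% and 30.5% of all tested genes. The median log2 fold change of the list was 0.09, also with GRB14 taken at its bound. It depended on the genes kept: at a mean CPM of at least 5, 17 of them were tested, 10 rose and 1 fell, and the median was 0.53. With voom and quantile normalization the median was -0.05. GRB7, which encodes an SH2 adaptor of the GRB10 family, rose to 20.2 ± 3.56 CPM in T47D-TR, against 4.46 ± 0.460 CPM in T47D (edgeR adjusted p = 6.85e-08), and SOCS6, a suppressor of cytokine signalling gene, had a log2 fold change of 1.84 ± 0.15 (edgeR adjusted p = 1.81e-08). GRB14, whose product binds and inhibits the insulin receptor, had 0 counts in every T47D-TR library, against 16, 21 and 13 in T47D. With 3 counts summed over T47D-TR taken as the floor, it was at least 16.4-fold lower in T47D-TR (edgeR adjusted p = 4.22e-05). ENPP1, another inhibitor of the insulin receptor, fell to 0.819 ± 0.104 CPM in T47D-TR, against 4.85 ± 0.400 CPM in T47D (edgeR adjusted p = 3.14e-07).

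The genes of the 3 IGF2 mRNA-binding proteins, which bind and stabilize many transcripts, all changed, with 1 higher and 2 lower. Calls in either direction covered 63.0% of all tested genes. IGF2BP3 rose slightly, at 216 ± 7.39 CPM in T47D-TR and 194 ± 4.36 CPM in T47D (log2 0.16 ± 0.03, edgeR adjusted p = 0.00776). IGF2BP2 fell by 0.50 (edgeR adjusted p = 7.53e-07) and IGF2BP1 by 0.42 on the log2 scale (edgeR adjusted p = 0.000182). FOXO factors, which AKT keeps out of the nucleus, and genes known to be induced by them numbered 28 tested genes. Of these 18 rose and 6 fell (median log2 fold change 0.57), against 32.5% and 30.5% of all tested genes. BCL6, a transcriptional repressor gene, rose to 69.3 ± 8.66 CPM in T47D-TR, against 15.7 ± 1.12 CPM in T47D (edgeR adjusted p = 1.77e-09), and YPEL3 had a log2 fold change of 1.57 ± 0.12 (edgeR adjusted p = 6.65e-06). SESN3, a stress-response gene, fell by 2.04 on the log2 scale (edgeR adjusted p = 4.19e-05), and ERBB3, the HER3 receptor gene, by 0.72 (edgeR adjusted p = 0.000523). INSR and IRS2 are themselves known FOXO targets and were not called.

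**Figure D5:**
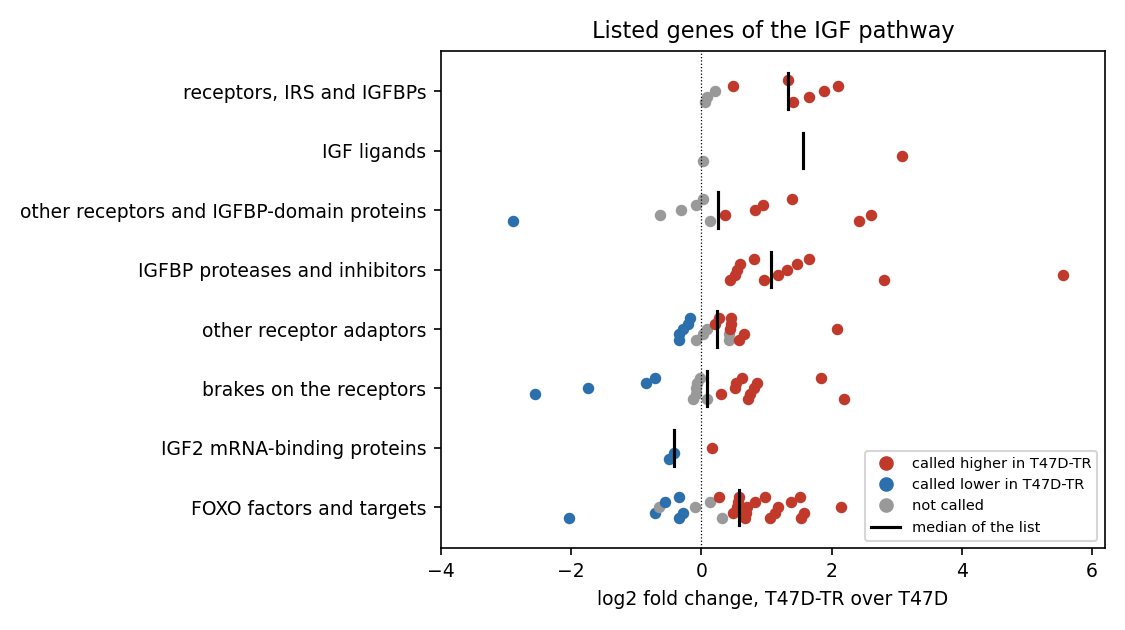
Log2 fold change, T47D-TR over T47D, of each tested gene of the 7 lists and of the 9 tested members, with black bars at the median of each list. All 12 tested IGFBP proteases and inhibitors lie right of 0, PAPPA farthest at 5.56, while adaptors and brakes lie on both sides; GRB14, at 0 counts in T47D-TR, is not drawn.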

How the data were processed

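Poly(A)-selected RNA was sequenced after directional NEBNext preparation, per the labels' protocols. Per the submitters' processing notes, HISAT2 2.1.0 and GRCh38 were used for alignment and DESeq for the comparison. The counter, strand handling and annotation: not given in the sources used here. Raw read counts for each gene were deposited by the authors, under a name that says FPKM. Beside them the authors deposited group means on a normalized signal scale, their ratio as a fold change, its log2 value, and p-values with a false discovery rate.

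Libraries were grouped by title. Counts were scaled by TMM, filtered by filterByExpr (minimum count 10, minimum total 15) and tested with edgeR 4.0.16 (glmQLFit, glmQLFTest; R 4.3.3), with 2-sided Benjamini-Hochberg adjusted p-values over 15961 genes. SE values come from log2 CPM with a prior count of 2, which narrows the spread of genes with few counts. Ratios and sums used exact permutation tests. Lengths come from GENCODE v29 basic coding transcripts, positions from RefSeq. Alternatives used DESeq2 1.42.0 and limma 3.58.1. The procedure was tested on simulated data. Same-numbered libraries did not deviate together. All 10 members were named, and from each list up to 2 called genes at either end with at least 10 counts in a group. The members and lists were chosen with earlier results of these data known. No member fell, so no profile neighbours of a falling member were sought.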

Additional observations from a re-analysis of the deposited data

How the results depend on the processing

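The 6 calls among the members (IGF1R, IRS1, IGFBP2, IGFBP3, IGFBP4 and IGFBP6) held, in the same direction, under all 13 alternatives run: median-of-ratios scaling, library size alone, DESeq2, voom with quantile normalization, no filter, a mean CPM of at least 5, the replicate block and each library left out. The number of members called was 6 to 8 with 1 library left out and 6 or 7 otherwise. INSR reversed without T47D replicate 3, at -0.00058, and was called without T47D-TR replicate 3, at 0.14, and the cause was not tested. Calls over all genes ranged from 9047 to 10665 with 1 library left out and from 8010 to 10514 otherwise, and those over the listed genes from 70 to 78 and from 64 to 78. The difference in log2 ratio was -1.30 to -1.01 for IRS2 to IRS1 and -0.49 to -0.35 for INSR to IGF1R with 1 library left out, and the summed binding protein level was 3.23- to 3.52-fold higher. Quantile normalization moved the median log2 fold change of tested genes by -0.08.

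Same-numbered libraries of the groups did not deviate together (correlations of -0.02 to -0.01), so the numbers are not taken as a pairing. With the replicate block 7 members and 9954 genes were called, IRS2 being added at a log2 fold change of 0.20 (edgeR adjusted p = 0.0364), and the mean paired differences were -1.13 and -0.44 for the ratios. IGFBP5 gave a value only without the filter, 0.64 (edgeR adjusted p = 0.389). The longest transcript as a length was added after the data were seen. Depth limits IGFBP5, IGF1 and IGF2, at up to 11 counts in a library.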
